A study of Mus musculus with 12 samples.

Results

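9 genes of chemoattractant sensing and tissue egress were followed in tumor-infiltrating CD8+ T cells, namely the chemokine receptor genes Cxcr3, Cxcr4, Cxcr6, Ccr2, Ccr8 and Cx3cr1, the chemerin receptor gene Cmklr1, and the sphingosine-1-phosphate receptor genes S1pr1 and S1pr4. They were chosen by name, by the role of the encoded receptors, and all 9 of the 52636 genes in the count table could be found. All 9 passed the filter on low counts and were tested. Over all 12 libraries edgeR called Cmklr1 between GFP+ and GFP− cells after adjustment over all genes, at 0.436 times the GFP− level, and DESeq2 called Cmklr1 and Cxcr4. Over the 10 libraries left when the outlying KT13 and KT21 were set aside, edgeR also called Cxcr4 as higher in GFP+ cells and Cxcr6 was higher after anti-PD-L1.

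Chemokine receptors are G protein-coupled receptors that steer leukocytes along gradients of small secreted proteins. CXCR3 binds the interferon-induced ligands CXCL9, CXCL10 and CXCL11 and guides effector T cells into inflamed tissue, CXCR4 binds CXCL12 and holds cells near stromal sources of it, and CXCR6 binds CXCL16, which is shown on the surface of myeloid cells. S1PR1 senses sphingosine-1-phosphate, which is abundant in blood and lymph, and so draws T cells out of tissues. Its transcription is driven by KLF2, and CD69 removes the protein from the cell surface.

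The cells came from female A2AR eGFP reporter mice on the C57BL/6 background, in which a bacterial artificial chromosome carries eGFP under the regulatory sequence of Adora2a, the gene of an adenosine receptor. All mice bore subcutaneous AT3ova tumors, a mouse mammary carcinoma line that expresses ovalbumin, after injection of 500000 cells. Mice were either non-treated or received anti-PD-L1, an antibody that blocks a ligand of PD-1, on days 14 and 18. On day 21 CD8+ T cells were sorted from tumors into GFP+ and GFP− fractions, which gave 4 conditions with 3 libraries each: non-treated GFP+ (KT13, KT15, KT17), non-treated GFP− (KT14, KT16, KT18), anti-PD-L1 GFP+ (KT19, KT21, KT23) and anti-PD-L1 GFP− (KT20, KT22, KT24). Each library held cells pooled from 3 mice, so the spread between libraries is that between pools. The fractions report the transgene and not the protein, and the 4 conditions all carry the transgene and the tumor antigen.

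Gene counts added up to 11292699 reads in the shallowest and 19023900 in the deepest library. The 2 GFP+ libraries KT13 and KT21 stood apart from the others. The median of their Spearman correlations with each other library came to 0.941 and 0.935, against 0.967 to 0.977 for the other 10. Fits were therefore run over all 12 libraries and over the 10 without them, and some results are given over 12 only. Adora2a itself was 2.88 times as high in GFP+ as in GFP− cells on average over treatments (log2 1.53 ± 0.14 SE, edgeR adjusted p = 0.000365, higher in 6 of 6 GFP+ libraries). The CD8 T cell genes were present throughout (Cd8a 798 to 1360 CPM), while Cd4 reached at most 0.918 CPM and was at 0 in 7 of 12 libraries. Transcripts listed as markers of other cells were also detected, and whether they came from such cells was not tested. The sum of 6 NK cell markers ran from 160 to 233 CPM in GFP+ libraries and from 72.8 to 135 CPM in GFP− libraries, and 3 of the 6 (Klrb1c, Tyrobp, Fcer1g) were higher in GFP+ cells over 12 and over 10 libraries. The sum of 12 macrophage and monocyte markers ran from 154 to 285 CPM in non-treated and from 78.1 to 170 CPM in treated libraries, and C1qa and Lyz2 were lower after anti-PD-L1 over 12 libraries, with Csf1r and Apoe added over 10.

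Sequence in front of the start site is shown for the 3 receptor genes that passed a test over 12 or 10 libraries, because these are the genes the results turn on. Each run is the 250 bases before the RefSeq start site, in GRCm38.p6, 5′ to 3′ on the strand of the gene, and RefSeq windows were found for 8 of the 9 genes. Capitals mark TATAAA in Cxcr4, TGACG (the half-site of the cAMP response element) in Cxcr6 and CCAAT in Cmklr1, each searched on both strands with the letters chosen after the sequences were seen. The windows are chr1:128592300-128592549 on the minus strand for Cxcr4 and chr9:123806227-123806476 on the plus strand for Cxcr6. For Cmklr1 the window is chr5:113643604-113643853 on the minus strand. It lies within the annotated span of the gene (chr5:113612354-113650426), so this start site is not the outermost annotated one.
Cxcr4: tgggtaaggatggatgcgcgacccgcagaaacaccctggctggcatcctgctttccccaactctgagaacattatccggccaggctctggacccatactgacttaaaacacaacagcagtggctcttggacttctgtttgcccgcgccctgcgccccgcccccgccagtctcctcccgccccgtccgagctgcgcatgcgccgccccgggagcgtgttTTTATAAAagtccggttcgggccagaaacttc
Cxcr6: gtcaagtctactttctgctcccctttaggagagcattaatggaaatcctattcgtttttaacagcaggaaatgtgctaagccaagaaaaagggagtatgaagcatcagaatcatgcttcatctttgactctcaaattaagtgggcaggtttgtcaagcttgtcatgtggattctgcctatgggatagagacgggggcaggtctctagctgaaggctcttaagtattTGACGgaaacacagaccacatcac
Cmklr1: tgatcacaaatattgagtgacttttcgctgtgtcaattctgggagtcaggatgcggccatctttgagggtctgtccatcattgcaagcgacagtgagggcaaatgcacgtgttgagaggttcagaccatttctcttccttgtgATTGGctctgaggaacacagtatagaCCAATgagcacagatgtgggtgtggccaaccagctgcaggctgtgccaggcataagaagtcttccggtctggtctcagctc
Cxcr4 holds TATAAA 30 bases before the start, and the same letters on the other strand overlap it. Cxcr6 holds 1 TGACG, 24 bases before the start, and Cmklr1 holds 2 CCAAT, 1 on each strand, 107 and 81 bases before the start. Among all 32851 windows of this length TATAAA is in 12.4%, CCAAT in 33.8% and TGACG in 17.8%. Of the 8 receptor windows 1 holds TATAAA, 3 hold CCAAT and 1 holds TGACG. The whole palindrome TGACGTCA is in 1.55% of windows and in 0 of the 8. These matches describe letters only, since binding was not measured.

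Of the 9 genes 4 lie on chromosome 9, which are Cx3cr1, Ccr8, Cxcr6 and Ccr2. Cxcr6 (chr9:123806475-123811760, plus strand, GRCm38, GENCODE vM21) lies within the span of Fyco1 on the minus strand, and whether the counting used strand is not given in the sources used here. Fyco1 itself was between 9.06 and 18.5 CPM in the 12 libraries. Cmklr1 (chr5:113612354-113650426, minus strand) overlaps the antisense gene Gm15736, and Cxcr4 (chr1:128588199-128592293, minus strand) overlaps no other annotated gene. The annotated span of Cx3cr1 (chr9:119901616-120069879, minus strand) overlaps 6 genes on the other strand and 3 on its own (Gorasp1, Csrnp1, Xirp1). Levels are given as CPM, read counts scaled to the TMM-normalized library size over the 12 libraries, and are compared between libraries for 1 gene at a time and not between genes.

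**Figure D1:**
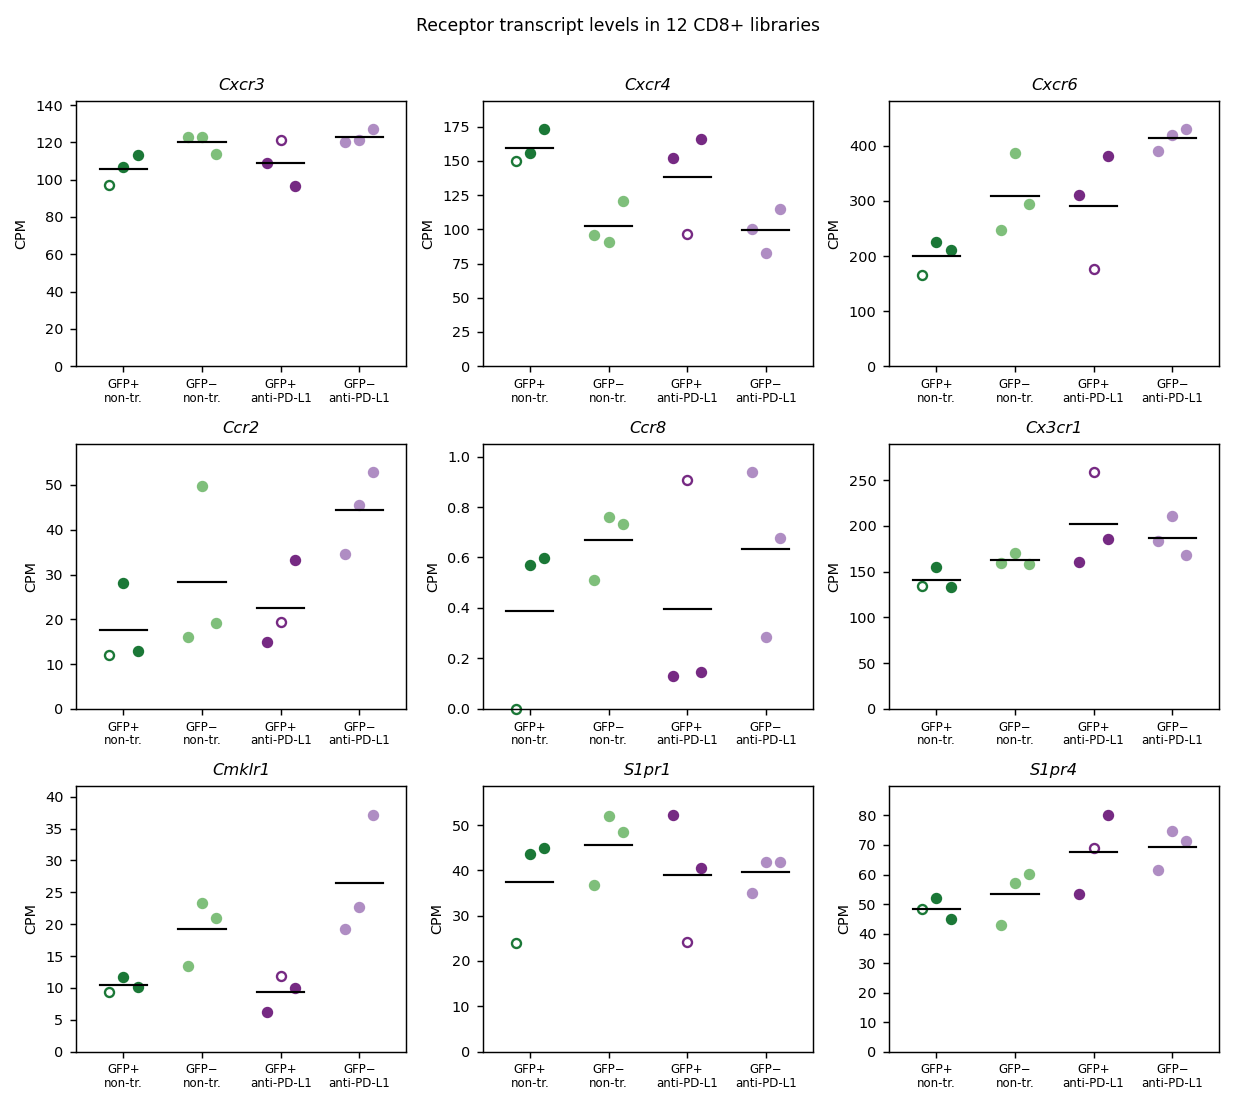
Transcript level of each of the 9 receptor genes, 1 panel per gene, with CPM on the vertical axis from 0 and the 4 conditions on the horizontal axis. Each point is 1 library, open points are KT13 and KT21, and bars are the mean of 3 libraries. Cmklr1 lies between 6.18 and 11.8 CPM in the 6 GFP+ libraries and between 13.5 and 37.2 CPM in the 6 GFP− libraries.

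Whether cells that express the reporter differ from cells that do not was asked for each treatment and on average over treatments. At an unadjusted p under 0.05 the share of all genes over 12 libraries was 6.05% for GFP in non-treated cells, 4.08% in anti-PD-L1 cells and 8.18% on average, against which the unadjusted counts are to be read. In the average over 12 libraries 1 of the 9 genes was called at an adjusted p under 0.05, against 0.31% of the 14173 genes tested. In the average over 10 libraries 2 of the 9 were called, against 1.08% of 14747 genes. Within non-treated cells 0 of 9 were called over 12 libraries by edgeR (background 0.00706%), with 3 at an unadjusted p under 0.05 and 0 called by DESeq2. Over 10 libraries 1 of 9 was called there (background 0.339%). Within anti-PD-L1 cells 0 of 9 were called over 12 libraries by edgeR (background 0.0282%), with 3 at an unadjusted p under 0.05 and 1 called by DESeq2. Over 10 libraries 1 of 9 was called there (background 0.17%). Of the 9 genes 8 had a negative fold change in the 12-library average and 7 in the 10-library average, with a median log2 fold change of −0.18 and −0.19, where the median of all genes tested was 0.004 and −0.005.

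Cmklr1 encodes a receptor for the secreted chemoattractant chemerin, and NK cells, macrophages and some dendritic cells carry this receptor. In non-treated cells it was at 9.42, 11.7 and 10.1 CPM in the GFP+ libraries and at 13.5, 23.4 and 21 CPM in the GFP− libraries. In anti-PD-L1 cells it was at 6.18, 11.8 and 9.92 CPM in GFP+ and at 19.3, 22.7 and 37.2 CPM in GFP−. Every GFP+ library lay below every GFP− library, within each treatment and across both. In order of their means the conditions ran from anti-PD-L1 GFP− (26.4 ± 9.5 CPM, SD, n = 3) over non-treated GFP− (19.3 ± 5.17) and non-treated GFP+ (10.4 ± 1.17) to anti-PD-L1 GFP+ (9.3 ± 2.87). The first pair overlaps, as does the last pair, and the middle step does not.

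On average over treatments Cmklr1 was lower in GFP+ cells by a log2 fold change of −1.20 ± 0.22 SE over 12 libraries (edgeR adjusted p = 0.0298) and of −1.27 ± 0.21 over 10 (edgeR adjusted p = 0.00142). An exact permutation of the GFP labels within each treatment gave two-sided p = 0.005, the smallest its 400 relabellings allow. Of all tested genes 1.85% reached this smallest value for GFP. Within treatments the log2 fold change over 12 libraries was −0.89 ± 0.30 without and −1.51 ± 0.31 with anti-PD-L1 (edgeR adjusted p = 0.649 and 0.198). Over 10 libraries it was −0.83 ± 0.29 in non-treated cells (edgeR adjusted p = 0.328) and −1.72 ± 0.30 in anti-PD-L1 cells (adjusted p = 0.00816). The call over 12 libraries was lost when any 1 of KT13, KT15, KT16, KT17, KT18, KT19, KT22, KT23 or KT24 was left out (edgeR adjusted p 0.0551 to 0.117), although the log2 fold change stayed between −1.30 and −1.02 in all 12 such fits.

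In a bulk library fewer cells that express a gene and less of its RNA per cell cannot be told apart, here and in all results that follow. Cmklr1 was lower in the GFP+ fraction, where the sum of the NK cell markers was higher in each treatment (194 to 227 against 113 to 135 CPM in non-treated, 160 to 233 against 72.8 to 95 CPM in anti-PD-L1 libraries). The macrophage and monocyte sum was 206 to 285 CPM in GFP+ and 154 to 227 CPM in GFP− libraries of non-treated mice, and 86.1 to 170 against 78.1 to 134 CPM after anti-PD-L1. Single NK cell markers ran from Klra4, at 0 in 2 libraries and at most 1.69 CPM, over Ncr1 at 1.21 to 6.64 CPM to Fcer1g at 42 to 154 CPM. Single macrophage markers ran from Mrc1, at 0 in 6 libraries and at most 0.963 CPM, over Csf1r at 2.81 to 21.4 CPM to C1qa at 26.6 to 96.1 CPM. Their part in the level of Cmklr1 was not tested. Over 10 libraries Cd8a and Cd8b1 were also lower in GFP+ cells, by log2 fold changes of −0.30 ± 0.07 SE and −0.54 ± 0.09 (edgeR adjusted p = 0.0333 and 0.00209).

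**Figure D2:**
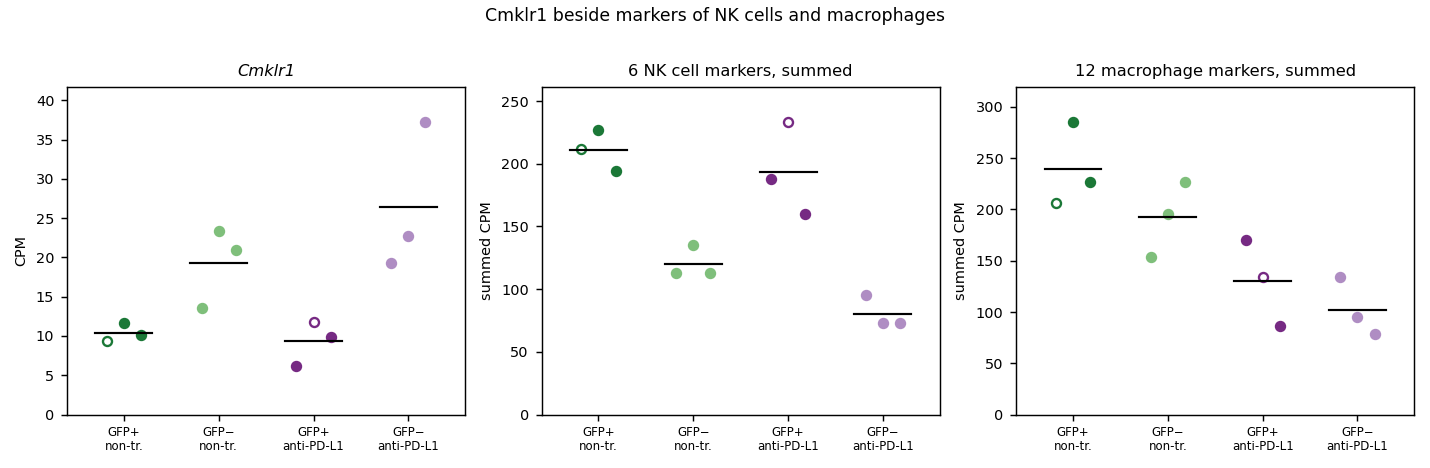
Cmklr1 (left), the summed level of 6 NK cell markers (middle) and the summed level of 12 macrophage and monocyte markers (right), in CPM from 0, by condition. Each point is 1 library, open points are KT13 and KT21, and bars are means of 3 libraries. Cmklr1 is lower and the NK cell sum higher in GFP+ than in GFP− libraries, while the macrophage ranges overlap within each treatment.

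Cxcr4, whose product keeps cells near sources of CXCL12, was the 1 receptor gene with a positive average fold change for GFP over 12 libraries. In non-treated cells it was at 150, 156 and 173 CPM in GFP+ and at 95.6, 90.8 and 121 CPM in GFP− libraries. In anti-PD-L1 cells it was at 152, 96.8 and 166 CPM in GFP+ and at 100, 82.5 and 115 CPM in GFP− libraries. The fractions did not overlap in non-treated cells, and in anti-PD-L1 cells only KT21, at 96.8 CPM, lay within the GFP− range. By condition the means were 160 ± 11.8 CPM (SD, n = 3) for non-treated GFP+, 138 ± 36.6 for treated GFP+, 102 ± 16 for non-treated GFP− and 99.3 ± 16.4 for treated GFP−, and each of these neighbours overlaps the next.

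Over 12 libraries the average log2 fold change of Cxcr4 was 0.56 ± 0.15 SE and was not called by edgeR (adjusted p = 0.194), while DESeq2 called it (adjusted p = 0.026). The exact stratified permutation gave p = 0.015. Over 10 libraries it was higher in GFP+ cells by 0.68 ± 0.10 (edgeR adjusted p = 0.000629). Leaving out KT21 alone was enough for a call (edgeR adjusted p = 0.0224), and leaving out none of the other libraries was. Within treatments the 12-library log2 fold change was 0.64 ± 0.20 without and 0.48 ± 0.20 with anti-PD-L1 (edgeR adjusted p = 0.596 and 0.993). Over 10 libraries it was 0.69 ± 0.15 in non-treated cells (edgeR adjusted p = 0.038) and 0.68 ± 0.15 in anti-PD-L1 cells (adjusted p = 0.0537).

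Cxcr6 marks T cells that reside in tissue and in tumors. In non-treated cells it was at 165, 225 and 211 CPM in GFP+ and at 247, 387 and 294 CPM in GFP− libraries. After anti-PD-L1 it was at 311, 177 and 382 CPM in GFP+ and at 391, 420 and 430 CPM in GFP− libraries. The GFP+ libraries lay below the GFP− libraries in both treatments, with KT13 and KT21 the lowest of their conditions. The average log2 fold change for GFP was −0.57 ± 0.17 SE over 12 libraries (edgeR adjusted p = 0.333, exact stratified permutation p = 0.005) and −0.38 ± 0.10 over 10 (edgeR adjusted p = 0.0866), so the difference did not pass the adjusted threshold in either set.

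Cxcr3 was at 97.1, 107 and 113 CPM in GFP+ and at 123, 123 and 114 CPM in GFP− libraries of non-treated mice. After anti-PD-L1 it was at 109, 121 and 96.8 CPM in GFP+ and at 120, 121 and 127 CPM in GFP−. The ranges are close together, and KT21 is the one GFP+ library that reaches the GFP− range of its treatment. On average the log2 fold change was −0.18 ± 0.10 SE over 12 and −0.19 ± 0.09 over 10 libraries, with an edgeR adjusted p of 0.668 and 0.444 and an exact stratified permutation p of 0.01 in the 12.

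Ccr2, the receptor for CCL2 that is best known from monocytes and is also made by effector T cells, varied widely among libraries of 1 condition. It was at 12, 28 and 13 CPM in non-treated GFP+ and at 16, 49.8 and 19.2 CPM in non-treated GFP− libraries. In treated mice the level was at 14.9, 19.5 and 33.2 CPM in GFP+ and at 34.5, 45.5 and 52.9 CPM in GFP−. The fractions overlap in non-treated cells and do not in anti-PD-L1 cells, where the gap between 33.2 and 34.5 CPM is small. The average log2 fold change for GFP was −0.83 ± 0.31 SE over 12 libraries and −0.68 ± 0.27 over 10 (edgeR adjusted p = 0.493 and 0.343). Ccr2 belongs to a family with close paralogs, and reads that match more than 1 of them could be placed on either.

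Cx3cr1, the receptor for CX3CL1 and a marker of circulating effector T cells, was at 134, 155 and 133 CPM in non-treated GFP+ and at 159, 170 and 158 CPM in non-treated GFP− libraries. In treated mice the level was at 161, 259 and 186 CPM in GFP+ and at 183, 211 and 168 CPM in GFP− libraries. The fractions were apart in non-treated cells only by the step from 155 to 158 CPM and overlapped after anti-PD-L1, where KT21 was the highest of all libraries. On average the log2 fold change for GFP was −0.05 ± 0.12 SE over 12 and −0.14 ± 0.09 over 10 libraries (edgeR adjusted p = 0.942 and 0.647).

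Ccr8, a receptor for CCL1 that is known from regulatory T cells, was near the limit of detection. Its counts were 0, 9 and 9 reads in non-treated GFP+, 9, 15 and 12 for non-treated GFP−, 2, 12 and 2 for treated GFP+ and 13, 4 and 9 for treated GFP− libraries. The count of 0 in KT13 allows up to 3 reads, or 0.267 CPM, from counting error alone. The average log2 fold change for GFP was −0.71 ± 0.83 SE over 12 libraries (edgeR adjusted p = 0.855), an error too wide for a difference of this size to be detectable at this depth.

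The receptor genes for sphingosine-1-phosphate gave no call for GFP. S1pr1, the egress receptor, was at 23.9, 43.5 and 44.9 CPM in non-treated GFP+ and at 36.7, 51.9 and 48.4 CPM in non-treated GFP− libraries. After anti-PD-L1 it was at 52.3, 24.2 and 40.6 CPM in GFP+ and at 35.1, 41.9 and 41.9 CPM in GFP−. KT13 and KT21 were the lowest of all 12 libraries, and the fractions overlap with and without them. On average the log2 fold change was −0.15 ± 0.20 SE over 12 libraries and turned to 0.09 ± 0.12 over 10 (edgeR adjusted p = 0.87 and 0.872).

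S1pr4, a receptor of lymphocytes for the same lipid, was at 48.2, 52.1 and 44.9 CPM in non-treated GFP+ and at 42.9, 57.1 and 60.3 CPM in non-treated GFP− libraries. In treated mice the level was at 53.5, 68.9 and 80.3 CPM in GFP+ and at 61.4, 74.7 and 71.4 CPM in GFP−. The fractions overlap in both treatments. The average log2 fold change for GFP was −0.09 ± 0.13 SE over 12 and −0.10 ± 0.12 over 10 libraries (edgeR adjusted p = 0.888 and 0.87).

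**Figure D3:**
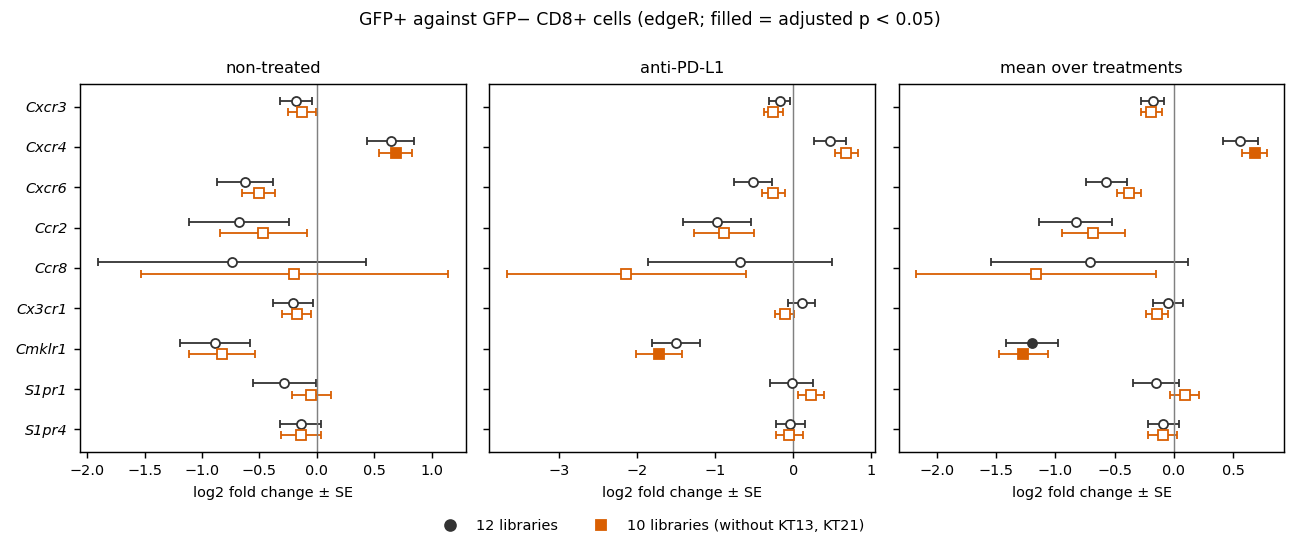
Log2 fold change of GFP+ against GFP− cells for each receptor gene (horizontal axis, bars are ± SE), in non-treated cells, in anti-PD-L1 cells and on average. Circles are fits over 12 libraries, squares over the 10 without KT13 and KT21, and filled symbols mark an edgeR adjusted p under 0.05. Cmklr1 at −1.20 and −1.27 is filled in both fits of the average and Cxcr4 only in the fit over 10 libraries, at 0.68. The horizontal scales differ between panels.

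The exact stratified test was run for GFP and for treatment in each of the 9 genes, which makes 18 tests without adjustment. For GFP over 12 libraries it fell under 0.05 for 4 genes (Cmklr1, Cxcr6, Cxcr3, Cxcr4), where 9.02% of all tested genes did, and over 10 libraries for 4 genes, against a background of 8.39%.

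Whether PD-L1 blockade changed the receptor genes was asked within each fraction and on average. The share of all genes at an unadjusted p under 0.05 was 6.74% for treatment in GFP+ cells, 3.44% in GFP− cells and 7.67% on average over 12 libraries, and 8.54%, 7.22% and 11.2% over 10. In the average over 12 libraries 0 of 9 genes were called by edgeR (background 0.395%), with 3 at an unadjusted p under 0.05 and 0 called by DESeq2. In the average over 10 libraries 1 of 9, Cxcr6, was called (background 1.36%). Within GFP+ cells 0 of 9 were called over 12 libraries by edgeR (background 0.0141%), with 3 at an unadjusted p under 0.05 and 0 by DESeq2. Over 10 libraries 0 of 9 were called there (background 0.563%), with 2 at an unadjusted p under 0.05. Within GFP− cells 0 of 9 were called over 12 libraries by edgeR (background 0%), with 0 at an unadjusted p under 0.05 and 0 by DESeq2. Over 10 libraries 0 of 9 were called (background 0.373%), with 2 at an unadjusted p under 0.05.

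Cxcr6 was higher after anti-PD-L1 over 10 libraries, by a log2 fold change of 0.55 ± 0.10 SE on average over the fractions (edgeR adjusted p = 0.00406). Over 12 libraries the value was 0.48 ± 0.17 (edgeR adjusted p = 0.467, exact stratified permutation p = 0.045). The anti-PD-L1 GFP− libraries, at 391 to 430 CPM, all lay above the non-treated GFP− libraries, at 247 to 387 CPM. Among GFP+ libraries the treatments overlapped because of KT21, at 177 CPM, and without KT13 and KT21 they did not (311 and 382 against 225 and 211 CPM). Within fractions the log2 fold change was 0.53 ± 0.24 in GFP+ and 0.42 ± 0.24 in GFP− cells over 12 libraries (edgeR adjusted p = 0.726 and 1). Over 10 libraries it was 0.67 ± 0.16 in GFP+ and 0.42 ± 0.13 in GFP− cells (edgeR adjusted p = 0.0556 and 0.319). Leaving out KT21 alone gave a call on average (edgeR adjusted p = 0.0435).

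In order of their means the conditions ran for Cxcr6 from anti-PD-L1 GFP− (413 ± 20.3 CPM, SD, n = 3) over non-treated GFP− (310 ± 70.9) and anti-PD-L1 GFP+ (290 ± 104) to non-treated GFP+ (200 ± 31.1). Only the first of these steps is free of overlap. Beside this, T cell genes also differed by treatment over 10 libraries: Cd8a was higher after anti-PD-L1 by a log2 fold change of 0.38 ± 0.07 SE and Cd3g by 0.32 ± 0.08 (edgeR adjusted p = 0.00301 and 0.0428). The macrophage markers named above were lower, and the part of either in the level of Cxcr6 was not tested.

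S1pr4 and Cx3cr1 had higher means after anti-PD-L1 without passing the adjusted threshold. For S1pr4 the average log2 fold change was 0.43 ± 0.13 SE over 12 libraries and 0.42 ± 0.12 over 10 (edgeR adjusted p = 0.296 and 0.115), and the exact stratified permutation over 12 gave p = 0.005. All anti-PD-L1 libraries lay above all non-treated libraries of the same fraction, although in GFP− cells the step was only from 60.3 to 61.4 CPM. For Cx3cr1 the value was 0.37 ± 0.12 over 12 and 0.24 ± 0.09 over 10 libraries (edgeR adjusted p = 0.404 and 0.261, exact stratified permutation p = 0.01 in the 12). Its treatments did not overlap in GFP+ cells and overlapped in GFP− cells, and the interaction of GFP and treatment for Cx3cr1 was 0.32 ± 0.25 over 12 libraries (edgeR adjusted p = 1).

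For the other receptor genes the average treatment difference over 12 libraries was smaller than its SE, except for Ccr2, where it was larger. The log2 fold change was 0.04 ± 0.10 SE for Cxcr3 and −0.13 ± 0.14 for Cxcr4. It was 0.49 ± 0.31 for Ccr2 and −0.05 ± 0.82 for Ccr8. It was 0.14 ± 0.21 for Cmklr1 and −0.07 ± 0.20 for S1pr1, and the edgeR adjusted p of these 6 genes lay between 0.817 and 1. Over 10 libraries Cxcr3 turned to −0.03 ± 0.09, Ccr8 moved to −1.04 ± 0.99 and Cmklr1 to 0.005 ± 0.21. In the exact stratified test for treatment 3 genes fell under 0.05 over 12 libraries (S1pr4, Cx3cr1, Cxcr6; background 8.36%) and 3 over 10 (background 7.33%).

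**Figure D4:**
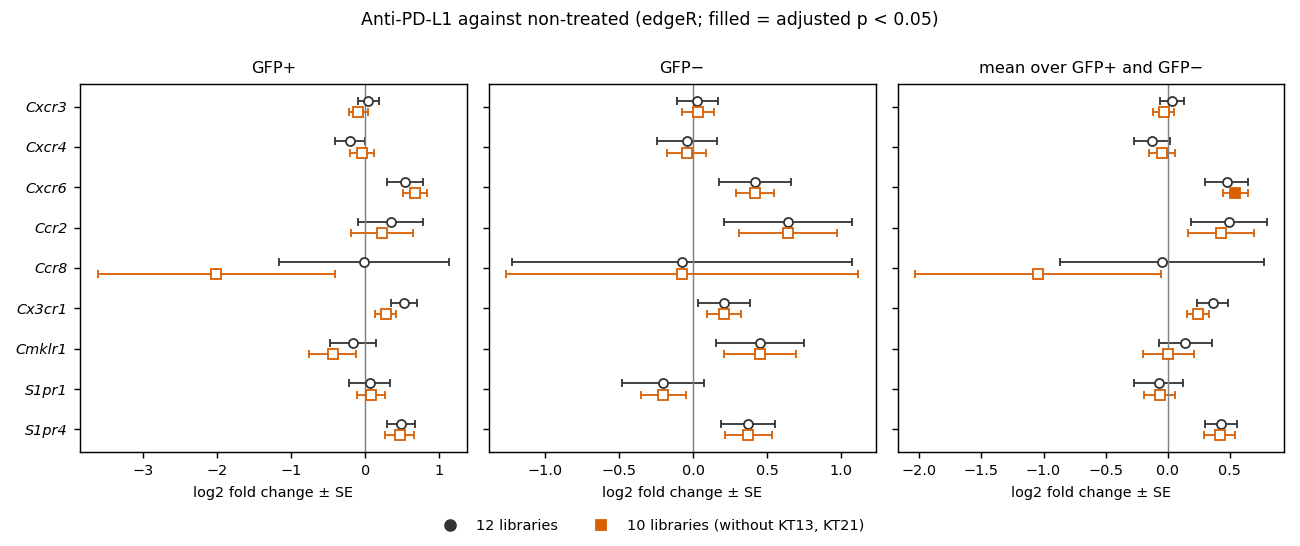
Log2 fold change of anti-PD-L1 against non-treated cells for each receptor gene (horizontal axis, bars are ± SE), in GFP+ cells, in GFP− cells and on average over both. Circles are fits over 12 libraries, squares over the 10 without KT13 and KT21, and filled symbols mark an edgeR adjusted p under 0.05. Only Cxcr6 in the average over 10 libraries, at 0.55, is filled. The horizontal scales differ between panels.

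Whether the GFP difference changed with treatment was tested as an interaction. Of the 9 genes 0 were called by edgeR over 12 libraries (background 0%), with 0 at an unadjusted p under 0.05 (2.08% of all genes) and 0 by DESeq2. Over 10 libraries 0 were called (background 0%), with 1 at an unadjusted p under 0.05 (4.29% of all genes). That gene was Cmklr1, whose GFP difference was more negative after anti-PD-L1 by a log2 value of −0.62 ± 0.43 SE over 12 and −0.89 ± 0.40 over 10 libraries (edgeR adjusted p = 1 in both). For Cxcr4 the interaction was −0.17 ± 0.29 and for Cxcr6 0.12 ± 0.35 over 12 libraries (edgeR adjusted p = 1).

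For the gene lists that follow, the shares of all genes at an unadjusted p under 0.05 are those for the averages, 8.18% for GFP and 7.67% for treatment over 12 libraries and 10.3% and 11.2% over 10. Of 17 chemokine receptor genes outside the 9 named ones, 9 were tested over 12 libraries and 10 over 10 libraries. None was called in any comparison over 12 libraries by edgeR, with 3 at an unadjusted p under 0.05 for GFP and 1 for treatment on average. Their median log2 fold change was −0.06 for GFP and −0.25 for treatment, beside 0.004 and −0.005 over all genes. Ccr7, the receptor that leads T cells into lymph nodes, is added here after its values were seen. It was lowest in KT21 and KT13, at 12.4 and 20.8 CPM, against 27.1 to 52.2 CPM in the other 10 libraries.

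Of 25 other leukocyte chemoattractant and lipid receptor genes, 16 were tested over 12 and 17 over 10 libraries, and 0 were called by edgeR in any comparison of either set. On average over 12 libraries 2 had an unadjusted p under 0.05 for GFP and 1 for treatment, and 3 and 2 over 10 libraries, beside the shares of all genes given above. Their median over 12 libraries was −0.09 for GFP and 0.04 for treatment.

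All 12 ligand genes of the 9 receptors were tested. None was called over 12 libraries by edgeR, where 2 had an unadjusted p under 0.05 for GFP and 4 for treatment on average, with medians of 0.35 and 0.45. Condition means of Cxcl11, Cxcl12, Ccl2, Ccl7, Ccl8, Ccl12 and Rarres2 were at most 1.61 CPM. These medians therefore include genes near the limit of detection. Over 10 libraries Cxcl10 and Cxcl16 were lower and Ccl1 was higher after anti-PD-L1 (3 of 12, where 1.36% of all genes were called), and Cxcl10 was lower in GFP+ cells (1 of 12, where 1.08% were). Cxcl16, the ligand of CXCR6, was at 10.4, 13.9 and 10.7 CPM in non-treated GFP+ and at 8.43, 7.27 and 2.29 CPM in anti-PD-L1 GFP+ libraries. In GFP− cells it was at 6.97, 8.57 and 11.6 CPM without and at 4.77, 3.13 and 2.49 CPM with treatment. The treated libraries lay below the non-treated ones in both fractions, and the log2 fold change was −1.28 ± 0.30 SE over 10 libraries (edgeR adjusted p = 0.0258) and −1.17 ± 0.29 over 12 (adjusted p = 0.166). The macrophage markers C1qa and Lyz2 were lower after treatment as well, at log2 fold changes of −1.001 ± 0.19 and −1.50 ± 0.29 over 12 libraries (edgeR adjusted p = 0.0317 and 0.0461), and their part in the level of Cxcl16 was not tested.

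Cxcl10, an interferon-induced ligand of CXCR3 that T cells also make, was at 138 to 241 CPM across the 6 non-treated and at 74.1 to 146 CPM across the 6 treated libraries. The 2 treatments overlap only through KT15 at 138 and KT22 at 146 CPM, which are of different fractions. On average the log2 fold change with treatment was −0.51 ± 0.09 SE over 10 libraries (edgeR adjusted p = 0.00262) and −0.73 ± 0.15 over 12 (adjusted p = 0.0635). For GFP it was −0.40 ± 0.09 over 10 (edgeR adjusted p = 0.0285) and −0.35 ± 0.15 over 12 (adjusted p = 0.574). Ccl1, the ligand of CCR8, was higher with treatment by 0.51 ± 0.13 over 10 libraries (edgeR adjusted p = 0.0474) and had a value of 0.66 ± 0.16 over 12 (adjusted p = 0.141).

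Of 14 genes of egress and retention, all of which were tested, 2 were called over 12 libraries in the average for treatment (1 higher, 1 lower, median −0.07, where 0.395% of all genes were called). In the average for GFP 0 were called by edgeR (2 at an unadjusted p under 0.05, median −0.06, where 0.31% of all genes were called). Klf2, the transcription factor that drives S1pr1, was at 598, 313 and 515 CPM in non-treated GFP+ and at 251, 183 and 196 CPM in anti-PD-L1 GFP+ libraries. In GFP− cells it was at 458, 278 and 418 CPM without and at 255, 212 and 225 CPM with treatment. Every treated library lay below every non-treated one. Klf2 fell by 0.96 ± 0.17 SE on the log2 scale over 12 libraries (edgeR adjusted p = 0.0239) and by 0.81 ± 0.13 over 10 (adjusted p = 0.000829). The call over 12 was lost without any 1 of KT14, KT17, KT18, KT20, KT22, KT23 or KT24 (adjusted p up to 0.0942). S1pr1 itself had an average treatment difference of −0.07 ± 0.20 in the same fit.

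Prdm1, which encodes the residency and effector factor BLIMP-1, was at 9.33, 16.1 and 14.8 CPM in non-treated GFP+ and at 28.5, 22 and 40.3 CPM in anti-PD-L1 GFP+ libraries. In GFP− cells it was at 12.6, 23.7 and 20.3 CPM without and at 30.1, 32.1 and 45 CPM with treatment. The treatments did not overlap in either fraction. The log2 fold change was 1.05 ± 0.21 SE over 12 libraries (edgeR adjusted p = 0.0485) and 1.04 ± 0.17 over 10 (adjusted p = 0.000879), and the 12-library call was kept when KT21 was left out and lost when any other single library was (adjusted p up to 0.154).

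Itgae, which encodes the integrin chain CD103 that holds T cells to epithelium, was at 116, 134 and 119 CPM in non-treated GFP+ and at 125, 189 and 145 CPM in non-treated GFP− libraries. After anti-PD-L1 it was at 90.2, 80.4 and 79 CPM in GFP+ and at 134, 179 and 161 CPM in GFP−. The fractions overlap without treatment and are apart with it. The average log2 fold change for GFP was −0.62 ± 0.12 SE over 12 libraries (edgeR adjusted p = 0.0538) and −0.59 ± 0.11 over 10, where it was called (adjusted p = 0.00628). Within treatments over 10 libraries it was −0.275 ± 0.16 in non-treated cells (edgeR adjusted p = 0.63) and −0.90 ± 0.16 in anti-PD-L1 cells (adjusted p = 0.00969). Over 12 libraries neither was called (edgeR adjusted p = 0.863 and 0.121). The interaction over 10 libraries was −0.63 ± 0.22 and was not called by edgeR.

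**Figure D5:**
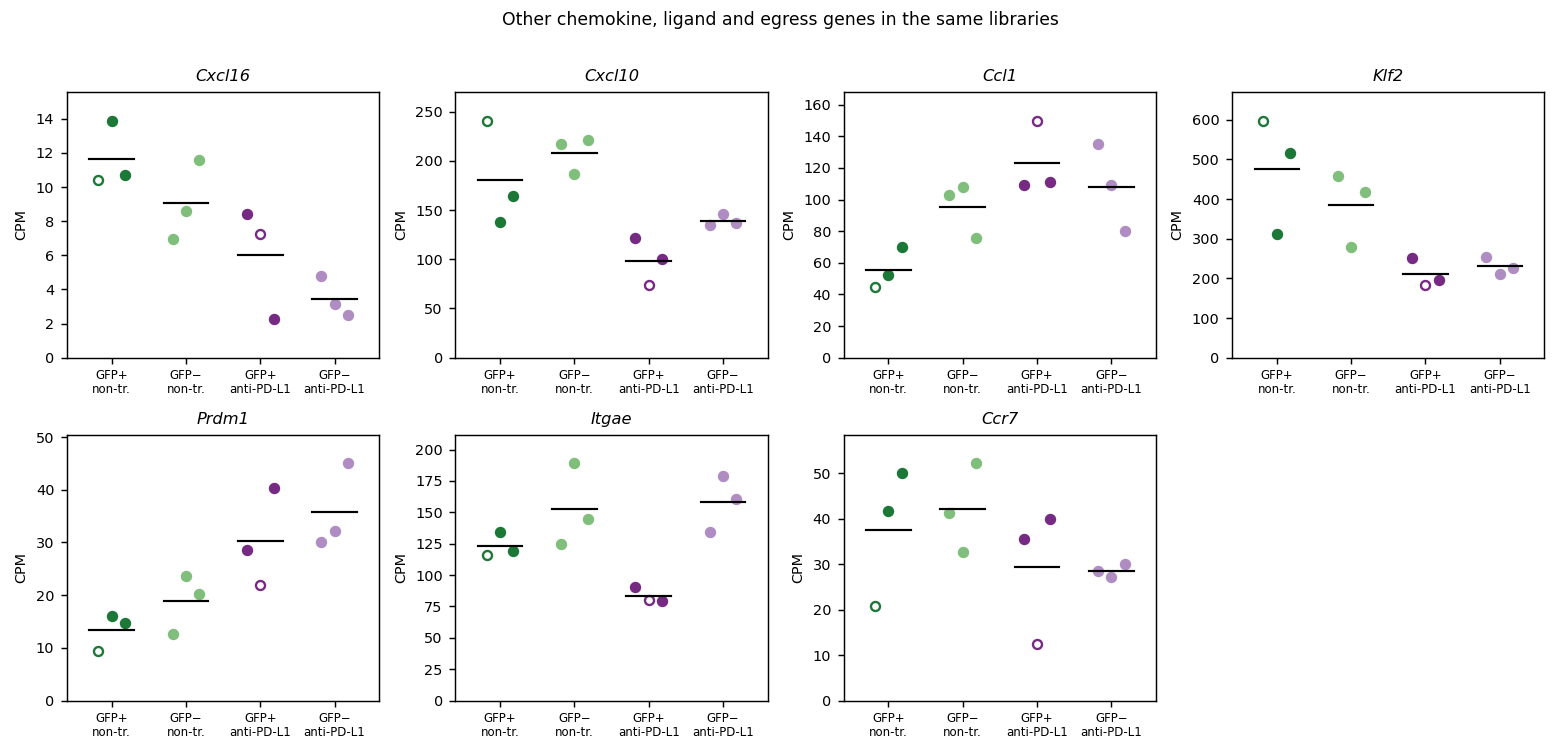
Transcript level of 7 genes around the receptors (Cxcl16, Cxcl10, Ccl1, Klf2, Prdm1, Itgae, Ccr7), in CPM from 0, by condition. Each point is 1 library, open points are KT13 and KT21, and bars are means of 3 libraries. Klf2 lies at 278 to 598 CPM in non-treated and at 183 to 255 CPM in anti-PD-L1 libraries, and Ccr7 is lowest in the 2 open points.

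Of 9 genes of sphingosine-1-phosphate synthesis, breakdown and export, 7 were tested, and 0 were called by edgeR in any comparison over 12 or 10 libraries. On average 0 had an unadjusted p under 0.05 for GFP and 1 for treatment over 12 libraries, and 0 and 2 over 10. The median log2 fold change over 12 libraries was −0.05 for GFP and −0.46 for treatment. Condition means of Sphk1, Spns2, Mfsd2b, Plpp1 and Plpp3 were at most 1.26 CPM, so these medians include genes near the limit of detection. Of 24 genes of signaling downstream of the receptors, from the inhibitory G protein to the Rac pathway, all were tested and 0 were called by edgeR in either set. There 4 had an unadjusted p under 0.05 for GFP and 1 for treatment over 12 libraries, and 5 and 4 over 10, beside the same shares of all genes (8.18% and 7.67% over 12, 10.3% and 11.2% over 10). Their median over 12 libraries was −0.07 for GFP and 0.12 for treatment.

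The genes whose pattern over the 12 libraries was most like that of a called receptor gene were listed by Pearson correlation of log2(CPM + 0.5), as a description in which all points share libraries and depth. For Cxcr4 they were Pdcd4 (r = 0.904), Pabpc4 (0.895) and 4933421A08Rik (0.892, at 0 to 3.18 CPM). For Cxcr6 they were Rac1 (r = 0.962), Csf1 (0.961) and Cd3g (0.959), and over 10 libraries their r was 0.927, 0.93 and 0.929. For Cmklr1 they were Dkkl1 (r = 0.934), Grap2 (0.919) and Aldoc (0.918), and over 10 libraries their r was 0.934, 0.96 and 0.923. For Cxcr4 the r over 10 libraries was 0.936, 0.895 and 0.889 in the same order.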

How the data were processed

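CD8+ T cells sorted from tumors were measured by QuantSeq 3′ RNA-seq in 12 libraries, 3 per condition. The authors deposited raw read counts per gene, with no normalization. Submitters' processing notes name cutadapt 1.7, HISAT2 and featureCounts of Subread 1.6.4 on GRCm38, while the study's methods name other versions of the trimming and counting tools. No molecular identifiers were used, and the limit given for Ccr8 covers counting error only. The ± values are SEs from the edgeR fits or SDs of libraries, and both include the spread between libraries. A strand setting for counting is not given in the sources used here. Symbols were given by GENCODE vM21 for 52403 of 52636 gene identifiers.

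Counts were filtered with filterByExpr on the 4 conditions, normalized by TMM and fitted over the 4 conditions with the quasi-likelihood F test of edgeR 4.0.16 (R 4.3.3, limma 3.58.1), with Benjamini-Hochberg adjustment over all tested genes and a threshold of 0.05. The fit was repeated without KT13 and KT21. Exact two-sided permutation tests used log2(CPM + 0.5), with labels permuted within strata, since 3 against 3 cannot go below p = 0.1. P-values measure the spread between these libraries, each of pooled mice. Between libraries of 1 condition the lowest chi-square per degree of freedom was 12.6, so none of these pairs agreed within sampling noise. The fit was tested on simulated data of independent libraries, with none made outlying as KT13 and KT21 are.

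The genes, lists, tests and the 2 libraries set aside were chosen with earlier results of these data known. From 6 gene lists and 10 marker lists, genes called in any comparison over 12 or 10 libraries were eligible to be named (at most 6 per list), and for each called receptor gene the 3 genes with the highest Pearson r. Alternatives were DESeq2 1.42.0, upper-quartile normalization, a minimum of 10 counts in every library, all genes with a read, fits of the 2 groups alone, a pseudocount of 5 and leaving out each library. Some list genes that the rule would name are not reported here.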

Additional observations from a re-analysis of the deposited data

How the results depend on the processing

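No paired analysis was possible because the labels give the groups no shared replicate numbers, animals or batches. Whether GFP+ and GFP− libraries of a treatment came from the same pools of mice is not given in the labels. All tests treated them as independent. Without KT13 and KT21 the receptor genes called numbered 1 for GFP in non-treated cells, 1 for GFP after anti-PD-L1, 2 for GFP on average and 1 for treatment on average, against 0, 0, 1 and 0 over 12 libraries. All genes called then numbered 50 and 25 for GFP in non-treated and anti-PD-L1 cells, 83 and 55 for treatment in GFP+ and GFP− cells, and 159 and 201 in the averages for GFP and treatment, against 1, 4, 2, 0, 44 and 56. With DESeq2 these were 53, 47, 93, 33, 158 and 181, with 1 receptor gene called for GFP after anti-PD-L1 and 2 on average. Without the filter on low counts they were 78, 49, 123, 60, 204 and 223, with 10 for the interaction, and 2 receptor genes were called for GFP after anti-PD-L1 and 4 on average (Cxcr4, Cxcr6, Ccr2, Cmklr1). With only the 2 groups compared, 0 genes were called for GFP after anti-PD-L1, 0 for treatment in GFP+ and 51 in GFP− cells. The cause of these changes was not tested.

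Leaving out 1 library gave 0 to 6 and 0 to 7 genes for GFP in non-treated and anti-PD-L1 cells, 0 to 34 and 0 to 28 for treatment in GFP+ and GFP− cells, 13 to 50 for GFP and 27 to 90 for treatment on average, and 0 for the interaction. Receptor genes called then numbered 0 to 2 for GFP and 0 to 1 for treatment on average. Signs turned, with no call on either side, without KT13 and KT21 for S1pr1 with GFP (log2 0.091, and 0.094 as a permutation difference), for Cxcr3 with treatment (−0.032 and −0.034) and for the permutation difference of Cmklr1 with treatment (−0.012). They also turned for GFP after anti-PD-L1 in Cx3cr1 (0.109 to −0.11) and S1pr1 (−0.021 to 0.228), for treatment in GFP+ cells in Cxcr3 (0.041 to −0.095), and for the interaction in Cxcr3 (0.012 to −0.126) and Ccr8 (0.058 to −1.941). With 1 library left out the ranges crossed 0 for Cx3cr1 with GFP (−0.159 to 0.02), for treatment in Ccr8 (−0.767 to 0.167), S1pr1 (−0.206 to 0.054), Cxcr3 (−0.003 to 0.084) and Cmklr1 (−0.012 to 0.257), and for the interaction in Cxcr6 (−0.122 to 0.374) and Cxcr4 (−0.304 to 0.036). Upper-quartile normalization, the minimum of 10 counts and the pseudocount of 5 changed the direction of none of the receptor genes' averages that they gave (Ccr8 has no value under the minimum of 10 counts). Depth limits Ccr8, which had at most 15 reads in a library.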

Other observations

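The summed level of 5 gamma delta T cell genes was 114 to 346 CPM over the 12 libraries. Most of it came from Tcrg-C2, at 68 to 249 CPM, and Tcrg-C1, at 37.8 to 93.2 CPM. Trdc was at only 2.95 to 10.1 CPM, and Sox13 was at 0 in 9 and Il23r in 7 of the libraries. The 4 CD4 and regulatory T cell genes summed to 41 to 102 CPM, with Ikzf4 at 27.6 to 76.6 CPM. Foxp3, the factor of regulatory T cells, was at 6.44 to 24.9 CPM. Ikzf4 was lower in GFP+ cells over 10 libraries (log2 fold change −0.60 ± 0.12 SE, edgeR adjusted p = 0.0139). The 5 B cell genes summed to 2.53 to 7.12 CPM and the 6 dendritic cell genes to 11.7 to 40 CPM. The 5 neutrophil genes summed to at most 3.37 CPM, with Mmp8 at 0 in all 12 libraries. Epithelial keratin and Epcam transcripts summed to 8.26 to 32 CPM, and those of fibroblasts and endothelium to 9.76 to 71.3 CPM, where the fibroblast gene Dcn was lower after anti-PD-L1 over 10 libraries (log2 fold change −3.63, edgeR adjusted p = 0.0129).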
